A study of Mus musculus with 5 samples.

Results

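The *Pax* family of transcription factors was followed in single-cell RNA-seq of mouse synovial sarcoma (SyS). All 9 mouse family members, *Pax1* to *Pax9*, were taken by gene symbol from the 32286 features of the deposited matrices, and no expression value was used to choose them. The question was which members were on in the tumor cells of each histological label and which were on in the other cell classes of the same tumors.

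The series held 5 tumors of *hSS2* mice, in which human *SS18::SSX2* was expressed from the *Rosa26* locus after injection of TATCre protein into the limb. All 5 tumors carried the fusion, and no tissue without it was compared here. TATCre is an injected protein and not a transgene under a tissue promoter, so the recombined cell type was not restricted by design. The tumors were collected at morbidity and labeled from adjacent histology as biphasic (BP 1 and BP 2), monophasic (MP), monophasic with biphasic areas (MP+BP) or poorly differentiated with monophasic areas (PD+MP). Strain, sex and age at harvest were not given in the labels. The BP titles share a leading number, and whether both tumors came from 1 animal was not stated. Each remaining label had 1 tumor, so the p-values below measure the spread among these 5 tumors.

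PAX proteins bind DNA through a paired domain and act in embryonic patterning, in organ formation and in the upkeep of some stem cells. The mouse members fall into 4 paralog groups. *Pax1* and *Pax9* pattern the sclerotome and pharyngeal pouches. *Pax2*, *Pax5* and *Pax8* act in kidney, midbrain-hindbrain, B cell and thyroid development. *Pax3* and *Pax7* act in neural crest and muscle progenitors, and *Pax4* and *Pax6* act in the pancreatic islet, eye and forebrain.

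After filtering, 39559 of 51670 called cells remained, and 25525 of them carried the markers of SyS cells (SyS-like), between 3654 and 6856 per tumor. Total depth per tumor was between 89996321 and 118649103 unique molecular identifiers (UMIs), each of which stands for 1 captured RNA molecule. The 12 SyS markers summed to between 3428 and 4671 CPM (counts per 1000000 UMIs) in the SyS-like cells of each tumor. The EGFP feature lay between 18.9 and 40.1 CPM in the 12 SyS-like clusters. *Xist*, read in female cells, was at 0.36 CPM in the SyS-like cells of PD+MP and between 1495 and 3837 CPM in the other tumors. *Uty*, on the Y chromosome, was at 135 CPM in PD+MP and at most 0.0404 CPM in the others. PD+MP was thus the only tumor with a male pattern, and its sex cannot be told apart from its label. In all, 231 of 51437 called barcodes occurred in at least 2 libraries. The 5289 cells of 7 clusters were left unnamed. Of these, 5188 cells lay in 6 clusters whose most numerous markers were those of SyS, and 2780 of the 5289 came from MP+BP. *Pax* genes took no part in clustering or naming.

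The upstream sequences of 3 members are shown because these members span the range from an abundant to a nearly silent gene in SyS-like cells, and because CG content is the feature by which mammalian promoters are commonly divided. Each run is the 250 bases before a RefSeq start in GRCm38.p6, written 5′ to 3′ on the strand of the gene, with CG dinucleotides in capitals. RefSeq entries were matched for 7 of the 9 members, and *Pax3* and *Pax4* are named only. *Pax2* had 3 entries and *Pax6* had 2, and the entry shown is the nearest before the annotated gene.
Pax2 (chr19:44755502-44755751, plus strand): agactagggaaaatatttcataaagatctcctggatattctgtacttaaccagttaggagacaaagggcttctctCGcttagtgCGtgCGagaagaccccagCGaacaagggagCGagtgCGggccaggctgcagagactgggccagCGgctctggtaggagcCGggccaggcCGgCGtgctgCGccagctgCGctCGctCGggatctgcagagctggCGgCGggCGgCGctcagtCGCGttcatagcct
Pax6 (chr2:105668646-105668895, plus strand): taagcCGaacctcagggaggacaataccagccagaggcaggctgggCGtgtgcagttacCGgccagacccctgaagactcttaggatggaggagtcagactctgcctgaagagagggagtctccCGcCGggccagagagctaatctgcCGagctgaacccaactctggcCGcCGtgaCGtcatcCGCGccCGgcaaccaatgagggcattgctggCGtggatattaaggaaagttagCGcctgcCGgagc
Pax8 (chr2:24475600-24475849, minus strand): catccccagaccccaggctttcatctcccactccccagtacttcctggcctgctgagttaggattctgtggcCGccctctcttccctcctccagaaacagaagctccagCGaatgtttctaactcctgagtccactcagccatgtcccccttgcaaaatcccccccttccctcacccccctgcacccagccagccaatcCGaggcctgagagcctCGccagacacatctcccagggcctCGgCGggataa
The *Pax2* run held 20 CG dinucleotides (the other *Pax2* entries held 5 and 25), a number reached by 17.95% of the 32851 upstream windows of the same length. The *Pax6* run held 15, reached by 27.3% of windows. The *Pax8* run held 6, which equals the median of all windows. CG reads the same on both strands. Among members not shown, the *Pax5* entry held 19 CG dinucleotides, the *Pax7* entry 13, the *Pax1* entry 10 and the *Pax9* entry 7. Over all members with an entry, CG number and SyS-like level were thus not in the same order. These counts describe the letters only.

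In SyS-like cells *Pax3*, *Pax2*, *Pax6* and *Pax7* were above 10 CPM in every tumor, *Pax5* and *Pax9* were lower and uneven, and *Pax1*, *Pax4* and *Pax8* stayed under 1 CPM. Each molecule was counted at its 3′ end, so no division by gene length applies, although capture can differ between genes. *Pax3* was the highest member, with 281 CPM in BP 1, 188 in BP 2, 259 in MP, 271 in PD+MP and 288 in MP+BP. Its mean was 257 ± 40.4 CPM (SD, n = 5). *Pax3* alone gave between 60.7% and 76.9% of all *Pax* UMIs in each tumor. BP 2 had the lowest *Pax3* level, and PD+MP the lowest share.

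*Pax2* came next, with 33.5 CPM in BP 1, 30.5 in BP 2, 46.0 in MP, 125 in PD+MP and 48.1 in MP+BP. Its mean was 56.5 ± 38.8 CPM (SD, n = 5), and PD+MP stood 4.08-fold above BP 2. *Pax6* ranged only from 20.9 CPM in MP+BP to 29.9 CPM in PD+MP, with 22.6 in BP 1, 20.96 in BP 2 and 28.1 in MP. *Pax7*, a marker of muscle satellite cells, had 16.8 CPM in BP 1, 13.1 in BP 2, 20.5 in MP, 20.1 in PD+MP and 25.6 in MP+BP. The means were 24.5 ± 4.24 CPM for *Pax6* and 19.2 ± 4.62 CPM for *Pax7* (SD, n = 5). Within tumors *Pax6* was above *Pax7* in 4 of 5, the exception being MP+BP, and this order was not tested.

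*Pax5*, best known for fixing B cell identity, was low and uneven, with 7.87 CPM in BP 1, 6.07 in BP 2, 4.17 in MP, 0.609 in PD+MP and 4.16 in MP+BP. With the unnamed clusters that carried mostly SyS markers added, an alternative chosen after seeing the data, MP+BP became the highest tumor, at 11.3 CPM. The tumor with the most *Pax2* had the least of its paralog *Pax5*. *Pax9* had 2.96 CPM in BP 1, 4.41 in BP 2, 0.296 in MP, 0.208 in PD+MP and 1.35 in MP+BP. All 3 tumors with a biphasic label lay above both tumors without it. *Pax1*, the paralog of *Pax9*, followed the same division at a lower level, with 0.888, 0.714 and 0.873 CPM in BP 1, BP 2 and MP+BP, and 0.336 and 0.0969 CPM in MP and PD+MP.

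*Pax4* gave 30 UMIs and *Pax8* 15 UMIs over all SyS-like cells. *Pax4* had 6 UMIs in BP 1, 9 in BP 2, 6 in MP, 1 in PD+MP and 8 in MP+BP. *Pax8* had 4, 6, 0, 1 and 4 UMIs in the same order. Both were near the level of single molecules, so a change between tumors was not detectable at this depth.

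**Figure D1:**
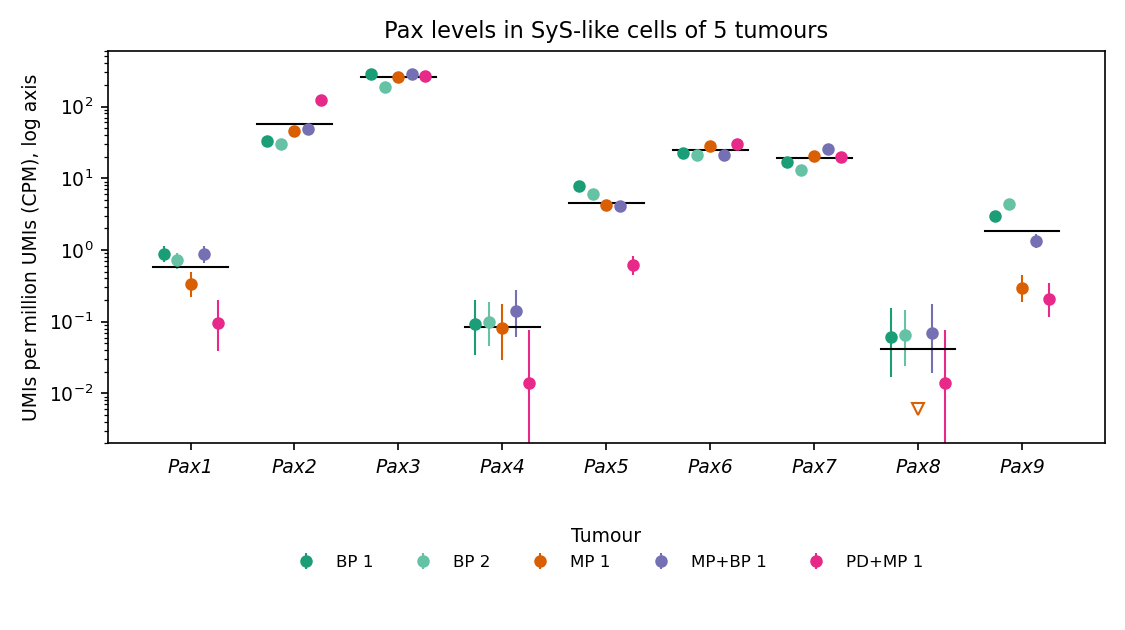
*Pax* levels in SyS-like cells of the 5 tumors, in CPM on a log axis. Points are tumors with exact 95% Poisson intervals, bars are means, and the open triangle marks *Pax8* in MP, with no UMI. *Pax3* lay between 188 and 288 CPM and *Pax2* was highest in PD+MP, at 125 CPM.

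Single cells were compared at a fixed depth, because median depth among SyS-like cells ran from 8546 UMIs in PD+MP to 12378 in BP 1. Each cell was thinned to 5000 UMIs, which left 22164 of 25525 SyS-like cells and, by tumor, 3497 in BP 1, 6308 in BP 2, 4156 in MP, 4599 in PD+MP and 3604 in MP+BP. At that depth 71.1% of SyS-like cells had a UMI of at least 1 *Pax* gene, 20.05% of exactly 2 and 3.36% of exactly 3. By tumor the share with at least 1 was 72.6% in BP 1, 62.5% in BP 2, 71.5% in MP, 79.9% in PD+MP and 73.2% in MP+BP.

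*Pax3* was detected in 57.5% of thinned SyS-like cells (74.4% before thinning), against 2.80% of macrophage-like cells, a class that should lack it. Median depths before thinning were 10017 UMIs in SyS-like and 5406 in macrophage-like cells. *Pax2* was detected in 19.6% (36.7% before thinning) against 0.981% of macrophage-like cells. *Pax6* was detected in 10.4% against 0.607%, and *Pax7* in 7.99% against 0.420%. *Pax5* was detected in 1.84% against 0 of 2141 macrophage-like cells, and *Pax9* in 0.929% against 0.0467%. The share with *Pax2* was 39.7% in PD+MP and between 11.4% and 17.0% in the other 4 tumors, the same division as the CPM values.

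Joint detection of members in the same cells is given as a description. Among thinned SyS-like cells, *Pax7* was detected in 8.73% of cells with *Pax3* and in 6.98% of cells without it. *Pax2* was detected in 39.2% of the 51 cells with *Pax5* and 16.7% of cells without it in MP+BP. The same shares were 23.0% and 16.6% in MP, 14.5% and 11.3% in BP 2, and 13.4% and 13.7% in BP 1. *Pax2* was detected in 5.83% of the 206 cells with *Pax9* and in 19.7% of cells without it. Within tumors these *Pax2* shares were 1.89% and 13.9% in BP 1, 3.28% and 11.6% in BP 2, and 5 of 25 cells with *Pax9* against 17.0% in MP+BP. The division was thus seen in both BP tumors and not in MP+BP.

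The next question was which members separated SyS-like cells from other cells of the same tumors. UMIs were summed per tumor and class and tested with edgeR's quasi-likelihood test, with the tumor as a block and Benjamini-Hochberg adjustment over all genes tested. A call is an adjusted p under 0.05. *Pax2*, *Pax3*, *Pax5*, *Pax6* and *Pax7* were higher in SyS-like cells than in each of 3 classes. In summed single-cell counts, less RNA of a gene per cell and fewer cells with it cannot be told apart.

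Against stromal cells (pericyte-like and fibroblast-like cells together), 5 of 7 tested members were called higher and 0 lower. Of all genes that were no clustering feature, 17.2% were called higher and 9.34% lower. This share leaves out the 3000 most variable genes, whereas *Pax* genes were kept out of the features by name. The share over all genes tested is not given here. *Pax3* had 84 UMIs in stromal cells (11.9 CPM) and was higher in SyS-like cells by 4.28 ± 0.41 on the log2 scale (SE, edgeR adjusted p = 1.0e-04). *Pax2* had 18 stromal UMIs (2.55 CPM) and was higher by 4.40 ± 0.39 (edgeR adjusted p = 6.7e-05). *Pax6* and *Pax7* each had 11 stromal UMIs (1.56 CPM). Their log2 fold changes were 3.71 ± 0.44 (edgeR adjusted p = 3.7e-04) and 3.53 ± 0.65 (edgeR adjusted p = 0.0037). All 4 were higher in SyS-like cells in 5 of 5 tumors.

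*Pax5* had no UMI in stromal cells, so only a bound can be given. Against a floor of 3 counts over all stromal cells, *Pax5* was at least 10.9-fold higher in SyS-like cells (edgeR adjusted p = 0.013). *Pax5* is counted among the calls above, but it passed the filter through the SyS-like sums alone. *Pax2*, *Pax6* and *Pax7* had no UMI in the stromal cells of BP 2, so their stromal sums alone did not pass it either. A call lower was therefore not open to these members. Among the called members only *Pax3* had stromal UMIs in every tumor. *Pax9* was not called. It had 8 stromal UMIs (1.13 CPM) against 1.97 CPM in SyS-like cells, and its log2 fold change was -0.34 ± 0.95 (edgeR adjusted p = 0.82), which turned to 0.56 without MP and to 0.22 without PD+MP. *Pax1* had 1 stromal UMI, which gave a ratio of 4.02 with a counting interval of 0.714 to 160, and it was not called (edgeR adjusted p = 0.49).

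Against endothelial-like cells, 5 of 5 tested members were called higher, where 31.0% of all such genes were called higher and 18.9% lower. Log2 fold changes ran from 3.96 ± 0.24 for *Pax6* to 5.54 ± 0.46 for *Pax7* (edgeR adjusted p = 1.4e-06 and 9.4e-06). *Pax3* had 90 and *Pax2* 19 endothelial-like UMIs, at 4.96 and 1.05 CPM. Against macrophage-like cells, again 5 of 5 were called higher, where 37.4% of such genes were called higher and 23.1% lower. Log2 fold changes ran from 3.85 ± 0.32 for *Pax6* to 4.62 ± 0.20 for *Pax3* (edgeR adjusted p = 1.9e-06 and 1.7e-08). *Pax1*, *Pax4*, *Pax8* and *Pax9* were too low for the filter of the test in both comparisons. *Pax5*, with 5 endothelial-like and 3 macrophage-like UMIs, and *Pax7*, with 6 endothelial-like UMIs, passed that filter through their SyS-like sums. So did *Pax2* over endothelial-like cells, with 1 endothelial-like UMI (0.175 CPM) in MP. A call lower was not open to them there. The 3 comparisons share the SyS-like sums and are not independent of each other.

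**Figure D2:**
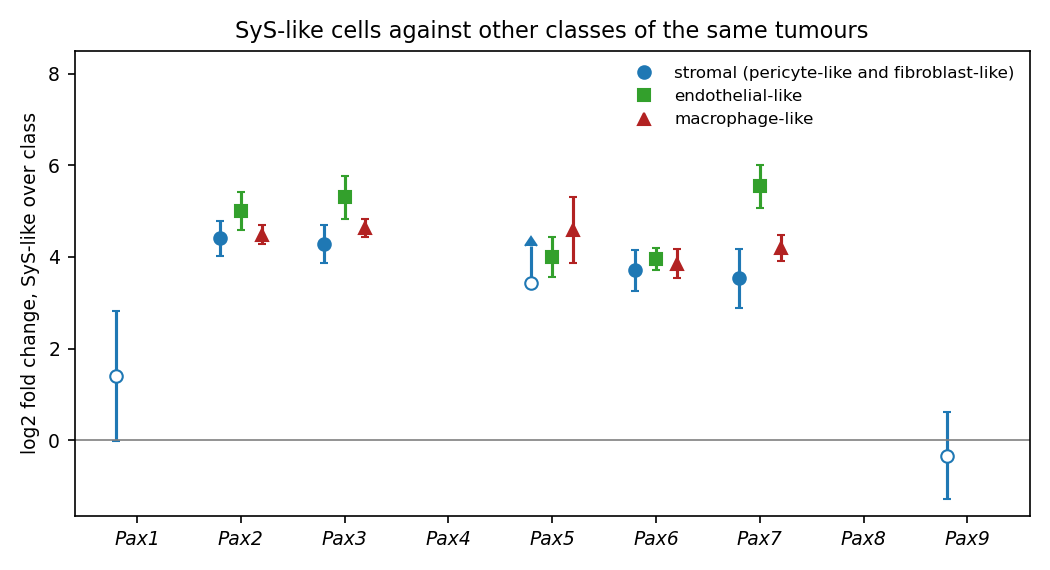
Log2 fold change of each tested *Pax* gene in SyS-like cells over stromal, endothelial-like and macrophage-like cells of the same tumors, with SE. Filled symbols passed the test and open circles did not, except for the open circle with an arrow, which marks the lower bound of *Pax5* over stromal cells. *Pax1* and *Pax9* were tested against stromal cells only, and neither was called.

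The called members were not at 0 outside SyS-like cells. In macrophage-like cells their level, as a share of the SyS-like level, was 3.19% for *Pax2*, 2.74% for *Pax3*, 2.76% for *Pax5*, 4.50% for *Pax6* and 3.63% for *Pax7*. The counting intervals ran from 2.30% to 4.31% for *Pax2*, from 2.34% to 3.20% for *Pax3* and from 2.94% to 6.60% for *Pax6*. In endothelial-like cells *Pax6* stood at 5.18% of its SyS-like level (3.28% to 7.77%) and *Pax3* at 1.97% (1.58% to 2.42%). These intervals cover counting error of the summed tumors and not the spread between tumors. By tumor, *Pax3* ran from 0.608% in MP to 7.60% in PD+MP, and *Pax6* from 4.21% in MP+BP to 7.95% in BP 2. In PD+MP alone *Pax3* stood above *Pax6*, which was at 5.73% there (1 UMI). The part of free RNA and of remaining doublets in these levels was not tested.

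A pair of members was higher in another class than in SyS-like cells. *Pax5* was the only member with more than 1 UMI in B-like cells, with 46 UMIs in 99 cells, or 201 CPM (exact 95% Poisson interval 147 to 268, which covers counting error only). It was found there in 21 UMIs in BP 1, 3 in BP 2, 14 in MP, 0 in PD+MP and 8 in MP+BP. Of the 33 B-like cells with *Pax5*, 28 had at least 2 of the 5 B cell markers. In SyS-like cells with *Pax5* that share was 4.21% (51 of 1212 cells), against 1.31% of SyS-like cells without *Pax5* (319 of 24313), with no matching of depth. Summed B cell markers lay between 7.78 and 179 CPM in SyS-like cells, of which *Blnk* alone reached 177 CPM. The part of B cells in the SyS-like *Pax5* level was not tested.

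*Pax8*, which was nearly absent from SyS-like cells, gave 15 UMIs in 15 of 3781 macrophage-like cells. By tumor these were 8 in BP 1, 1 in BP 2, 1 in MP, 4 in PD+MP and 1 in MP+BP. The macrophage-like level was 0.637 CPM against 0.0416 CPM in SyS-like cells, a ratio of 15.3 with a counting interval of 6.96 to 33.6. It was higher in macrophage-like cells in 5 of 5 tumors. Too few UMIs were present for the filter of the main test, so no adjusted p is given here. Endothelial-like, pericyte-like and fibroblast-like cells had no *Pax8* UMI.

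**Figure D3:**
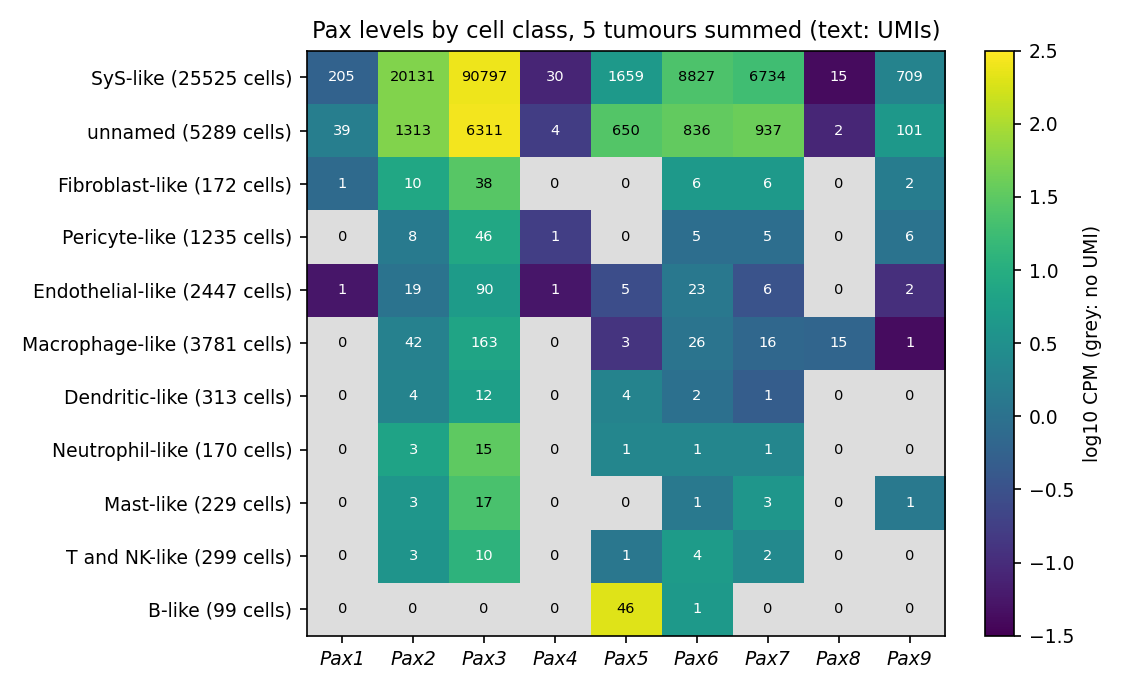
*Pax* levels by cell class, summed over the 5 tumors. Color gives log10 CPM, the text in each cell the number of UMIs, and grey marks a class without a UMI. *Pax3* is the brightest member in SyS-like cells, at 252 CPM, and *Pax5* the brightest in B-like cells, at 201 CPM.

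The tumors differed by histological label, and the split with more than 1 tumor a side was BP 1, BP 2 and MP+BP against MP and PD+MP. PD+MP, the only tumor with the male pattern of *Xist* and *Uty*, lay on the side without a biphasic label. No member was called (0 of 7 tested by edgeR), although 4 of 7 had an unadjusted p under 0.05, and of all genes that were no clustering feature 0% were called higher and 0% lower. Over all 20685 genes tested, an unadjusted edgeR p under 0.05 was reached by 1164 higher and 761 lower genes, and the DESeq2 Wald test called 412 higher and 81 lower after adjustment. *Pax9* had the largest difference among the members, at 3.50 ± 0.70 on the log2 scale (edgeR adjusted p = 0.48). DESeq2 called *Pax9* higher (log2 fold change 3.48, adjusted p = 5.2e-05). *Pax1* differed by 1.88 ± 0.63, *Pax2* by -1.25 ± 0.44 and *Pax6* by -0.48 ± 0.18 on the log2 scale, none of them called (edgeR adjusted p = 0.52, 0.52 and 0.53).

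*Pax3* and *Pax7* differed least between the label sides, by -0.13 ± 0.23 and -0.19 ± 0.30 on the log2 scale (edgeR adjusted p = 0.86 and 0.85). *Pax2* was called lower in tumors with a biphasic label once MP was left out (log2 fold change -1.85, edgeR adjusted p = 0.047), where PD+MP was the only tumor on its side and was assumed to vary like the others. The SyS-like over stromal difference was also compared between label sides (edgeR interaction). No member was called, and *Pax9* was the only one with an unadjusted p under 0.05 (log2 difference 4.67 ± 1.30, edgeR adjusted p = 0.96).

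Within the SyS-like cells, members varied by cluster. Clusters mostly followed tumors, since in 11 of 12 SyS-like clusters over 50% of cells came from 1 tumor, so cluster and tumor cannot be told apart for most of them. Cluster 7 was the only SyS-like cluster with at least 100 cells in each tumor. It was led by *Mgp*, *Bmp5*, *Cartpt*, *Sst*, *Penk* and *Col1a1*. The values that follow are a description, because clusters were drawn from the same cells.

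In cluster 7 *Pax3* was higher than in the other SyS-like cells of the same tumor in 5 of 5 tumors. *Pax3* was at 424 CPM against 276 in BP 1, 364 against 176 in BP 2, 596 against 255 in MP, 330 against 270 in PD+MP and 465 against 257 in MP+BP. *Pax6* went the other way in 5 of 5 tumors, with 4.76 CPM against 23.2 in BP 1, 7.41 against 21.9 in BP 2, 5.06 against 28.3 in MP, 2.86 against 30.5 in PD+MP and 6.64 against 23.4 in MP+BP. The ranges of *Pax6* in the cluster and outside it did not overlap. The share of all genes that separate in this way, or that differ in 5 of 5 tumors, was not computed.

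*Pax2* was also lower in cluster 7 in 5 of 5 tumors, at 16.6 ± 5.83 CPM against 58.4 ± 39.1 CPM outside it (SD, n = 5). In PD+MP, the tumor with the most *Pax2*, its level was 15.7 CPM inside the cluster and 127 CPM outside. *Pax5* had 2 UMIs there in BP 1, 2 in BP 2 and 7 in MP+BP, and was lower than outside in these 3 tumors. It had no UMI in the 117 cells of MP and the 196 cells of PD+MP, too few cells to show a lower level. *Pax9* reached 26.6 CPM in cluster 7 of BP 2 against 2.87 CPM in its other SyS-like cells, and 158 of the 402 *Pax9* UMIs of BP 2 lay in the cluster. It was also above the other cells in BP 1 (5.20 against 2.87 CPM) and MP+BP (3.26 against 1.01 CPM), while MP and PD+MP had 0 and 1 UMI there. *Pax7* was above the other cells in 3 of 5 tumors, most in BP 2, at 37.4 against 11.4 CPM.

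**Figure D4:**
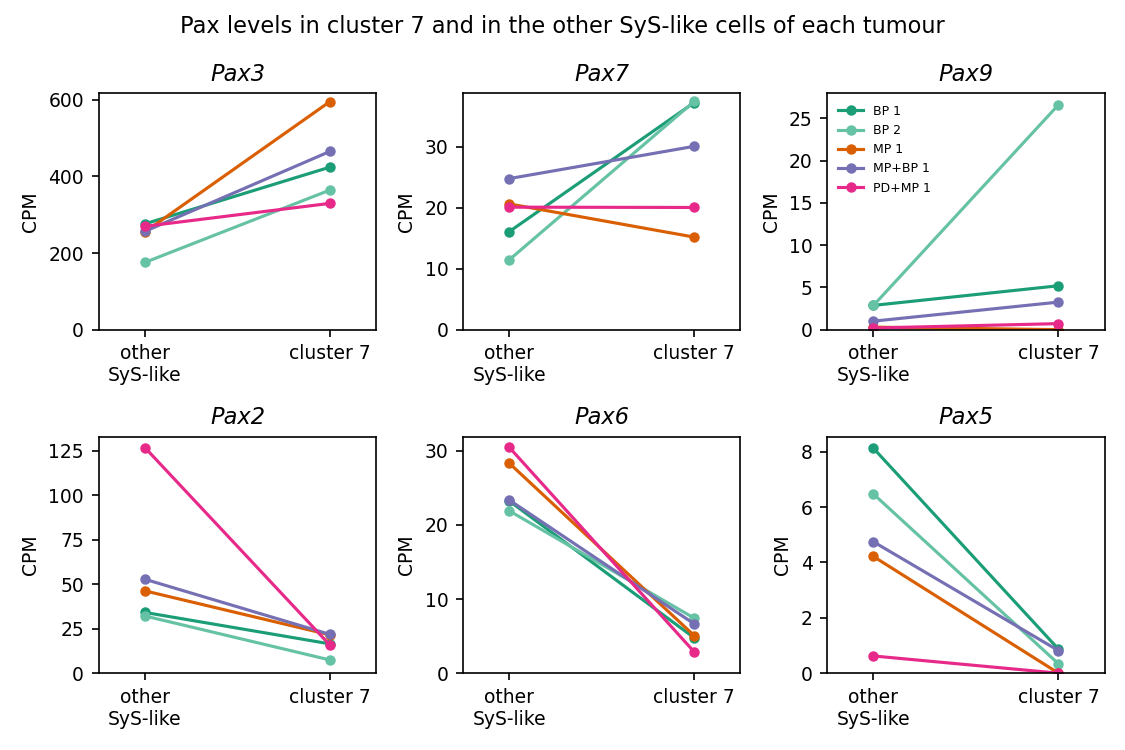
CPM of 6 *Pax* genes in cluster 7 and in the other SyS-like cells of each tumor, joined by a line per tumor. *Pax3* is higher and *Pax2* and *Pax6* are lower in the cluster in all 5 tumors. *Pax5* has no UMI in the cluster in MP and PD+MP, and *Pax9* is highest in BP 2, at 26.6 CPM.

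Cluster 18, led by *Rab25* and the epithelial junction genes *Cldn6*, *Cldn7* and *Cdh1*, had 585 cells from BP 1 and 177 from MP+BP. *Pax2* was at 55.1 CPM there in BP 1 and 71.2 CPM in MP+BP, and *Pax3* at 272 and 209 CPM. *Pax9* was at 0.491 CPM (6 UMIs) and 2.60 CPM (9 UMIs). Across the 22 sums of a SyS-like cluster within a tumor (at least 100 cells each), *Pax3* ran from 126 to 596 CPM, *Pax2* from 7.41 to 161 CPM and *Pax6* from 2.86 to 40.5 CPM.

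Patterns were compared across those 22 sums by Pearson's r of log2(CPM + 1), as a description, since sums of a tumor share its library. *Pax2* and *Pax6* varied together (r = 0.77), as did *Pax1* and *Pax9* (r = 0.73), while *Pax2* and *Pax9* were opposed (r = -0.65). *Pax1* had only 205 UMIs in all SyS-like cells and a median of 0.643 CPM over the sums, so its r rests on values near the floor. Among 11934 genes, the pattern most like that of *Pax2* was *Slc43a2* (r = 0.91), then *Mphosph8* and *Hs6st2*. *Ptprd* (0.88), *Foxo3* and *Itsn2* were most like *Pax3*. *Adgrb1* (0.94), *Fam222a* and *Fgfr3* were most like *Pax5*, and *Nup210* (0.93), *Foxo6* and *Cdca7l* most like *Pax6*. *Piezo1* (0.87), *Myo1c* and *Kank2* were most like *Pax7*, and *Slc24a3* (0.86) and *Anks1b* most like *Pax9*.

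Genes that work with PAX proteins or mark the tissues in which they act were read from 6 lists, 66 genes in all, with the same edgeR comparison of SyS-like over stromal cells. Across genes that were no clustering feature, the median log2 fold change was 0.22, with 17.2% called higher and 9.34% lower. The list genes too were kept out of the features by name. Genes of the forebrain, eye and islet context of *Pax4* and *Pax6* were called higher for 11 of 12 tested members and lower for 0. Their median log2 fold change was 3.77, or 3.44 with *Neurod1*, which had no stromal UMI, set at its bound. *Nkx2-2*, a regulator of neural progenitors and islet cells, was at 17.7 ± 4.14 CPM in SyS-like against 0.498 ± 0.697 CPM in stromal cells (SD, n = 5, log2 fold change 4.55). *Neurod1* was at least 5.91-fold higher. *Tbr1*, of cortical neurons, was not called, at 0.558 against 0.765 CPM.

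Of the muscle, neural crest and melanocyte context of *Pax3* and *Pax7*, 7 of 11 tested genes were called higher and 2 lower, with a median of 2.39. *Met*, a receptor gene of migrating muscle progenitors, was at 38.7 ± 28.8 against 1.95 ± 1.88 CPM (log2 fold change 4.01), and *Lbx1*, of the same cells, rose by 3.85. *Foxd3*, of neural crest progenitors, rose by 3.68. *Meox2*, a somite homeobox gene, differed by -7.02, and *Mitf*, of melanocytes, by -2.32 (named after its value was seen). The muscle regulators *Myf5*, *Myod1*, *Myog* and *Myf6* were too low to be tested, with at most 0.597 CPM in the SyS-like cells of any tumor. *Sox10*, of neural crest and glia, was not called, at 0.961 against 0.216 CPM.

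Markers of other lineages in which *Pax3* and *Pax7* are known were low in SyS-like cells. The 7 muscle and satellite cell markers summed to between 1.98 and 5.89 CPM, the 5 Schwann markers to between 10.0 and 13.5 CPM and the 5 melanocyte markers to between 2.26 and 4.63 CPM. *Tyrp1* and *Tyr* were at 0 in at least 1 tumor. Of SyS-like cells with *Pax7*, 0.482% had at least 2 muscle or satellite cell markers, against 0.111% of those without it (23 of 20753), likewise unmatched.

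In the kidney and midbrain-hindbrain context of *Pax2*, *Pax5* and *Pax8*, 6 of 11 tested genes were called higher and 0 lower, with a median of 1.47. *Lhx1* and *Sall1*, both of the forming kidney, rose by log2 fold changes of 4.08 and 3.68. *Fgf8* and *En2*, of the midbrain-hindbrain boundary, rose by 3.35 and 3.17. *En1* was not called, and ran from 0.582 to 269 CPM between the SyS-like cells of different tumors. In the sclerotome and palate context of *Pax1* and *Pax9*, 3 of 6 tested genes were higher and 2 lower, with a median of -0.33. *Uncx* and *Sox9* rose by 5.19 and 2.10, while *Foxc2* and *Tbx18* differed by -6.52 and -5.23. *Osr2* was not called, at 6.60 against 20.99 CPM.

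Of the genes of the *Six3*, *Eya1* and *Dach1* families, whose products work beside PAX proteins in eye and kidney, 2 of 11 tested genes were called higher (*Six3* and *Eya1*, log2 fold changes 4.51 and 3.65) and *Eya4* was lower (-1.75), with a median of 0.95. Both counts are near the 17.2% and 9.34% of all such genes. *Dach1* was not called, at 154 against 96.3 CPM. In the PTIP complex, which PAX proteins recruit to methylate histone H3, 1 of 6 tested genes was called higher, near the 17.2% of all such genes. *Paxip1*, which codes for PTIP itself, was at 38.3 ± 4.003 against 15.4 ± 2.86 CPM (log2 fold change 1.04). *Kmt2d* was not called, at 42.5 against 27.5 CPM.

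**Figure D5:**
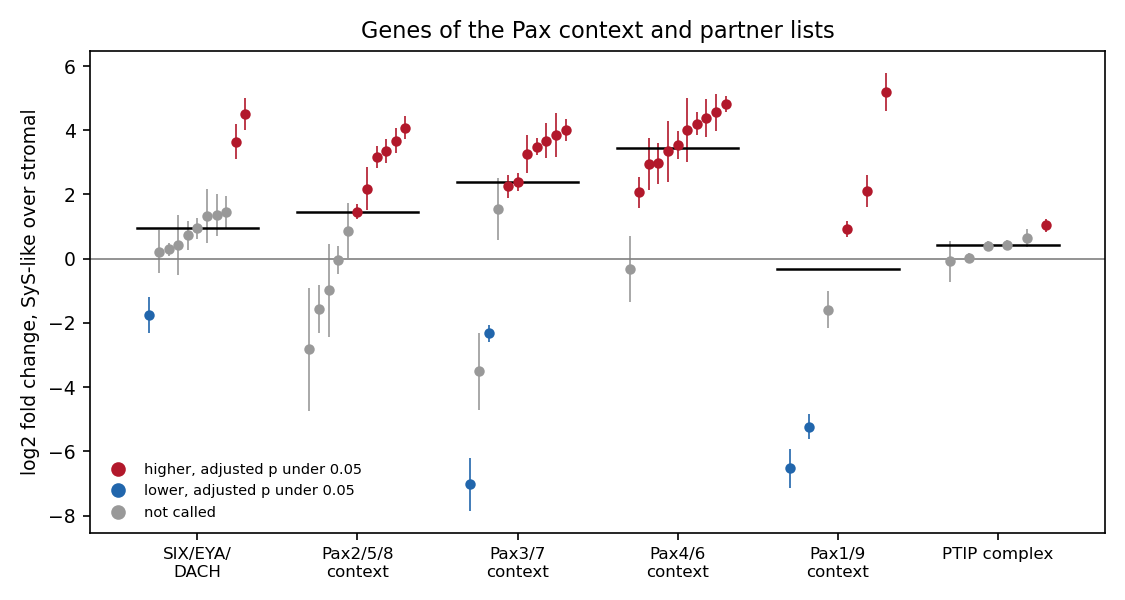
Log2 fold changes (SE bars) of tested list genes in SyS-like over stromal cells, one point per gene and a bar for the median of each list, with *Neurod1* entered at its bound in the median and not drawn. The *Pax4* and *Pax6* context lies highest, with a median of 3.44.

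The members lie on 6 chromosomes, and each is set beside its nearest coding neighbors. Of these, 6 of 16 tested were called higher in SyS-like over stromal cells and 0 lower. For all genes that were no clustering feature the shares were 17.2% and 9.34%, whereas a neighbor could be a clustering feature. *Pax3* (chromosome 1, 78101267 to 78197134, minus strand, GRCm38) lies beside *Epha4* and *Sgpp2*, both called higher in SyS-like over stromal cells (log2 fold changes 3.10 and 2.68). *Pax1* (chromosome 2, 147361925 to 147393295, plus strand) lies between *Nkx2-2* and *Foxa2*, which were called higher by 4.55 and 3.60, although *Pax1* itself was not called. *Pax9* (chromosome 12, 56691767 to 56712822, plus strand) lies beside *Nkx2-9*, called higher by 5.35, and overlaps *Slc25a21* on the other strand, which was not called. *Pax6* (chromosome 2, 105668900 to 105697364, plus strand) overlaps its antisense transcript *Pax6os1*, which was called higher by 3.45, while the neighbors *Elp4* and *Rcn1* were not called.

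*Pax2* (chromosome 19, 44756045 to 44837871, plus strand) lies beside *Slf2*, called higher by 0.97, and *Hif1an*, not called. *Pax7* (chromosome 4, 139737062 to 139833528, minus strand) lies between *Tas1r2* and *Klhdc7a*, at 0.393 and 0.193 CPM in SyS-like cells. *Pax5* (chromosome 4, 44524757 to 44710487, minus strand) lies between *Melk* and *Zcchc7*, neither called. *Pax4* (chromosome 6, 28442334 to 28449353, minus strand) lies beside *Snd1*, at 183 CPM and not called, and *Fscn3*, also not called. *Pax8* (chromosome 2, 24420560 to 24475599, minus strand) lies between *Psd4* and *Cacna1b*, at 0.326 and 2.80 CPM in SyS-like cells. Of the called neighbors, *Nkx2-9* lay 78483 bases from its *Pax* gene, *Slf2* 93280, *Sgpp2* 113211, *Nkx2-2* 167682, *Epha4* 586179 and *Foxa2* 649582. Tested neighbors that were not called lay between 3663 bases (*Elp4*) and 517590 bases (*Prps1l3*) away.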

How the data were processed

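Droplet 3′ single-cell RNA-seq was made from 5 dissociated *hSS2* tumors. The authors ran Cell Ranger 7.2.0 on mm10 (submitters' processing notes). They deposited unnormalized UMI counts for each gene in each called cell. Whether intronic reads were counted is not given in the sources used here, and no deposited cell annotation was used.

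Cells with under 750 genes or over 25% mitochondrial UMIs were removed, as were the highest Scrublet scores up to 0.8% per 1000 cells (2957 cells), because the automatic threshold marked 0 cells in MP+BP and PD+MP. The rest were clustered in scanpy 1.11.5 and leidenalg 0.10.2 (3000 variable genes, 30 principal components, 20 neighbors, resolution 1) without *Pax* or list genes. A cluster was named from at least 3 markers of a class, unless markers of a different class outnumbered its own among the 10 leading genes or it was shallow without any of its own there. Unnamed clusters stayed out of tests.

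Summed UMI counts were tested with edgeR 4.0.16 (TMM, filterByExpr, quasi-likelihood, in R 4.3.3; classes were paired by the tumor they came from), with DESeq2 1.42.0 as an alternative. Cells are not replicates. The fits were tested on simulated data with 200 genes changed by a log2 fold of 3. The stromal fit called 171 of them with 16 false calls. The fit between label sides called 130 with 7 false calls, so it can miss changes of that size. Of 32286 feature identifiers, 32235 were in GENCODE M21.

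All 9 *Pax* genes were named, with up to 4 called genes of largest change and at least 1 other member per list, the 3 genes most alike in pattern and the nearest coding neighbors. Some genes that this rule names are not reported here. Members and lists were chosen with earlier results of these data known. Intervals are 95%. The alternatives were other scalings, filters, doublet settings, clusterings, depths and each tumor left out.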

Additional observations from a re-analysis of the deposited data

Results flagged for a closer look

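*Pax2* in the SyS-like cells of PD+MP, at 124.5 CPM, lay farther from the other 4 tumors than Dixon's 95% limit allows. PD+MP was also the only tumor with the male pattern of *Xist* and *Uty*, so label and sex cannot be told apart here. Chance flags about 1 in 20 such groups, and 9 members were examined.

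Some *Pax* signal lay in cell classes that were not tested by themselves, above the level in macrophage-like cells. *Pax5* was at 201.2 CPM in B-like cells and at 1.915 CPM (4 UMIs) in dendritic-like cells. In the 172 fibroblast-like cells *Pax3* was at 28.57 CPM, *Pax2* at 7.519 CPM, and *Pax6* and *Pax7* each at 4.511 CPM (6 UMIs each). These cells entered the stromal sums together with pericyte-like cells, and 128 of them came from PD+MP, where EGFP was at 6.13 CPM in the class. All 6 *Pax7* UMIs came instead from the 39 fibroblast-like cells of MP+BP, at 36.9 CPM, where EGFP had 0 UMIs. *Pax3* was at 22.55 CPM in mast-like and 32.52 CPM in neutrophil-like cells, whose median depths were 2457 and 1818 UMIs.

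In unnamed cells 7 members lay above their macrophage-like level, *Pax3* at 265.2 CPM, *Pax2* at 55.17, *Pax7* at 39.37, *Pax6* at 35.13, *Pax5* at 27.31, *Pax9* at 4.244 and *Pax1* at 1.639 CPM. Most of these cells carried SyS markers.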

How the results depend on the processing

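Of 70 recomputed counts of called genes, 67 stayed within 1.5 times the reported count. The *Pax* count over macrophage-like cells was 8 with no filter on low counts (7 higher, 1 lower). The label count was 1 with the DESeq2 Wald test, and between 0 and 1 with a tumor left out, the 1 being *Pax2* without MP. *Pax2*, *Pax3*, *Pax5*, *Pax6* and *Pax7* were called higher over each class under every alternative in which they were tested. With no replicate block all 3 class counts were 5, and the list count was 37 against 35. The share of all genes called under these settings is not given, so a higher count is not read as a result about the members.

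Signs that turned belonged to members never called over stromal cells. *Pax1* was at -0.99 with doublets at the automatic threshold, -0.92 with doublets kept and -1.25 at Leiden resolution 2. *Pax9* was at 0.22 with doublets kept, 0.48 with no replicate block and 0.25 with pericyte-like cells only, an alternative chosen after seeing the data, and between -0.89 and 0.56 with a tumor left out. With library totals as the only scaling, the median over all genes moved from 0.17 to 0.43 (log2) over stromal, from 0.16 to 0.39 over endothelial-like and from 0.22 to 0.82 over macrophage-like cells, and every *Pax* call stayed. Adding unnamed clusters with most SyS markers, also chosen after seeing the data, gave *Pax* counts of 5, 7 and 5 over the 3 classes. These counts, too, stand without the share of all genes called under that setting. Thinning lowered the share of cells with *Pax2* from 36.1% to 19.7%. *Pax4* and *Pax8* are limited by depth.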

Other observations

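The highest *Pax5* outside B-like cells lay in a pair of unnamed clusters of MP+BP. Cluster 12 (1326 cells, 99.5% from MP+BP) and cluster 27 (128 cells, 91.4% from MP+BP) were led by *Cpvl*, *Gm16499*, *Kctd8* and *Trac*, carried 7 and 5 SyS markers, and were left unnamed because *Trac*, a T cell receptor gene, was among their leading genes and no SyS marker was. EGFP was at 37.2 and 48.2 CPM there. *Pax5* was at 39.6 CPM (exact 95% Poisson interval 36.1 to 43.2) in cluster 12 and at 46.9 CPM (36.6 to 59.2) in cluster 27, against 4.16 CPM in the SyS-like cells of MP+BP. *Pax7* was at 46.7 and 37.5 CPM and *Pax6* at 41.4 and 38.8 CPM, against 25.6 and 20.9 CPM. *Pax3* was at 176 CPM in cluster 12 and 270 CPM in cluster 27. These values come from 1 tumor, have no replicate, and were chosen after they were seen.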
